A study of Rattus norvegicus with 2 samples.

Results

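The genes described here encode the colony-stimulating factors and other cytokines that keratinocytes can secrete. They were the 10 listed symbols Csf1, Csf2, Csf3, Il23a, Il24, Il20, Il19, Il6, Lif and Tslp, and 8 of them had a named probe among the 15037 named genes on the array. Il19 and Tslp had none and were not analysed here. Expression was measured in newborn rat epidermal keratinocytes in culture, the cells of which the outer skin is made, on 1 whole-transcript oligonucleotide array per group. The siTet2/3 cells were transfected with siRNAs against Tet2 and Tet3 at 1 µM each using a lipid reagent, and the control cells are titled NC and described as non-treated. It is not given in the sources used here whether the control received another siRNA or the reagent alone. Both groups were grown in medium with 10% fetal bovine serum and 0.4 µg/mL hydrocortisone, and both were given vitamin C for the last 12 h, which began 24 h after transfection. No array without vitamin C was used here. TET enzymes oxidise methylated cytosine in DNA and depend on vitamin C for full activity, and the comparison asked which genes differed when 2 of them were targeted. Tet1, Tet2 and Tet3 had no named probe, so the size of the knockdown was not analysed here.

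The members were chosen with their differences between these 2 arrays known, so those differences are given as a description. With 1 array per group no difference has a replicate check and no test was possible. "Higher" and "lower" describe these 2 arrays only, and precision is limited by there being only 2.

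Keratinocytes use cytokines to signal to immune cells and to one another. Colony-stimulating factors act on myeloid cells: Csf3 on neutrophils, Csf2 on granulocytes, macrophages and dendritic cells, and Csf1 on macrophages. Cytokines of the IL-20 group, Il19, Il20 and Il24, act mainly on epithelial cells through receptors that activate STAT3, and the IL-6 group, with Il6 and Lif, signals through the shared receptor chain gp130. In resting cells most of these genes are transcribed little. Damage or inflammation raises them through factors such as NF-kB and AP-1, and their mRNAs are short-lived.

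Stretches of the proximal promoters are shown because methylation of CpG dinucleotides there is what TET enzymes can begin to remove, and because such stretches hold the binding letters of the factors named above. The RefSeq promoter table of build GRCr8 held windows for 7 of the 10 genes; Csf1, Csf3 and Lif were not analysed in this respect. The 250 bases before the annotated start are printed 5′ to 3′ on the gene's strand for 3 genes that were lower on the siTet2/3 array and for Il6, which read as background on both arrays. Capitals mark every match to 1 of 6 motifs, searched on both strands: the core of the CK-1 cytokine element (AGATTCCAC), the NF-kB consensus, the AP-1 site (TGANTCA), the STAT site (TTCNNNGAA), the cyclic AMP response element or CRE (TGACGTCA), and the TATA box in its form TATAAA.
Csf2, chr10:38889674-38889923, minus strand
Csf2: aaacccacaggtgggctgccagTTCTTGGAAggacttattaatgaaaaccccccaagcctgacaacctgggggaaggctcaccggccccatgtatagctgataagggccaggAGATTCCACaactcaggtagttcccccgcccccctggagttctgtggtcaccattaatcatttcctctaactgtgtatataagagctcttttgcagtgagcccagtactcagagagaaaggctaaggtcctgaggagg
Il24, chr13:44910761-44911010, minus strand
Il24: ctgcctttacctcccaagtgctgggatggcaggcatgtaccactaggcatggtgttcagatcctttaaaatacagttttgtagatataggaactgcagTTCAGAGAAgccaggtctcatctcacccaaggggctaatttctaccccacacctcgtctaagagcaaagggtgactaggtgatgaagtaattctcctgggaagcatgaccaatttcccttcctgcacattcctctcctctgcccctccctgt
Il23a, chr7:1308435-1308684, minus strand
Il23a: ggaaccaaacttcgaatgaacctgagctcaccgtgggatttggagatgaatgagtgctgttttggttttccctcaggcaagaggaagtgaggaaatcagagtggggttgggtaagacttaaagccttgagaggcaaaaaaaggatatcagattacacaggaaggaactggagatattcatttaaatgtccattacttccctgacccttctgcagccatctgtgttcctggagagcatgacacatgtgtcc
Il6, chr4:5894576-5894825, minus strand
Il6: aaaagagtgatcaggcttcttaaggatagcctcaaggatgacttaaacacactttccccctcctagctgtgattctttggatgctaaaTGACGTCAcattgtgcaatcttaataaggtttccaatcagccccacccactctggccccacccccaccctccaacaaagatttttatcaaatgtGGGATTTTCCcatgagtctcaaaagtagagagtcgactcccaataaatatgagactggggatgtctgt

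The Csf2 window held the CK-1 letters, 138 to 130 bases before the start, and a STAT match 228 to 220 bases before it. The CK-1 letters occurred in 93 of all 33469 windows of the same length, or 0.278%. The Il24 window held a STAT match 152 to 144 bases before the start, and STAT matches occurred in 7.67% of all windows. The Il23a window held none of the 6 motifs. The Il6 window held an NF-kB match 68 to 59 bases before the start and a CRE match 162 to 155 bases before it, against 3.54% and 1.59% of all windows. No AP-1 match was found in the 8 windows of the members. As 6.34% of all windows held 1, a count of 0 among 8 shows little. None of the matches overlapped another. A match describes letters only, and the absence of a match says nothing about the factor outside this stretch.

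CpG dinucleotides were few in the windows of the lower genes. The Csf2 window held 2, the Il23a window 2 and the Il24 window 1, where the median over all windows was 5 and the quartiles were 2 and 15. The ratio of observed to expected CpG was 0.118 for Csf2, 0.159 for Il23a and 0.0674 for Il24, against a median of 0.383 over all windows. The Il6 window also held 2, with a ratio of 0.167, near that of Il23a. Among the windows not printed, that of Il20 held 6, that of Il19 held 4 and those of the 2 annotated starts of Tslp held 3 and 9. The ratios of these windows were 0.345, 0.358, 0.439 and 0.591. DNA methylation itself was not measured in the data used here.

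Values below are deposited log2 signals, and differences are siTet2/3 minus control. The background floor was 5.04 log2 units, the 95th percentile of the higher of both values over 1206 chemoreceptor genes (olfactory, vomeronasal, taste and trace amine), which keratinocytes are taken not to use. A second, higher floor of 8.31 log2 units came from 1153 negative-control probes. Of the 8 cytokine genes, 6 lay above the first floor on both arrays, and Il20 and Il6 lay below it on both. All 6 had a negative difference, as did 4458 of the 8103 named genes above the floor. Csf3, Il23a, Csf2 and Il24 were at least 1.5-fold lower on the siTet2/3 array, 0 were at least 1.5-fold higher, and Csf1 and Lif were neither. For comparison, 13.2% of all 8103 named genes past the floor were lower by 1.5-fold or more and 8.63% higher. The median difference was -1.24 over the 6 cytokine genes and -0.05 over all genes above the floor. As the genes were chosen on this contrast, nothing is read from the share of lower members.

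**Figure D1:**
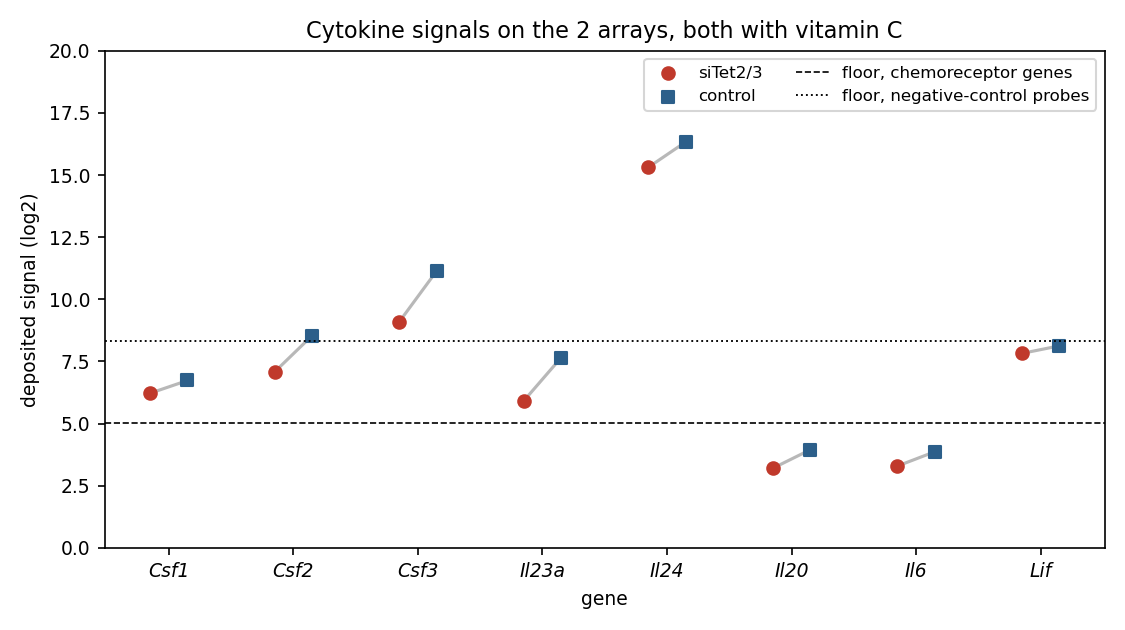
Deposited log2 signal of the 8 cytokine genes with a named probe, on the siTet2/3 array (circles) and the control array (squares), 1 array each; lines join the 2 values of a gene. The dashed line is the floor of 5.04 and the dotted line that of 8.31; every siTet2/3 value lies below its control value, and Il20 and Il6 lie below both floors.

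The colony-stimulating factors did not differ to the same extent. Csf3, which encodes granulocyte colony-stimulating factor, read 9.09 log2 units on the siTet2/3 array and 11.14 on the control array. That is 4.13-fold lower, the fourth lowest difference among the 8103 genes. Both values lay above both floors. Csf2, which encodes granulocyte-macrophage colony-stimulating factor, read 7.08 on the siTet2/3 array and 8.54 on the control array. It was 2.74-fold lower and ranked 39 from the lowest. Its siTet2/3 value lay below the floor of the negative-control probes, and against that floor the gene was at least 1.17-fold lower. Csf1, which encodes macrophage colony-stimulating factor, read 6.22 and 6.73, a difference of -0.51 that fell just short of 1.5-fold.

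Il23a, which encodes the p19 subunit of interleukin-23, a cytokine that sustains IL-17-producing T cells, read 5.91 log2 units on the siTet2/3 array and 7.65 on the control array. It was 3.34-fold lower and ranked 12 from the lowest. Both values lay between the 2 floors, so this fold rests on dim signals. Interleukin-23 also needs the p40 subunit, encoded by Il12b. Il12b read 3.25 on the siTet2/3 array and 3.45 on the control array, below the floor on both.

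In the IL-20 group, Il24 read 15.31 log2 units on the siTet2/3 array and 16.33 on the control array, which is 2.03-fold lower. Of the lower cytokine genes it was the one nearest to the 1.5-fold limit. Its values lay 10.27 log2 units over the floor on the siTet2/3 array and 11.29 on the control array. Its relative Il20, the next named gene on chromosome 13, read 3.20 and 3.95. Both lay below the floor, so its difference of -0.74 is not read as a change.

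The IL-6 group showed smaller differences. Lif, which encodes leukaemia inhibitory factor, read 7.82 log2 units on the siTet2/3 array and 8.13 on the control array, a difference of -0.30. Il6 read 3.29 and 3.87, below the floor on both arrays. An Il6 signal was therefore not detectable above background on either array, and the difference of -0.58 is not read as a change.

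The spread of differences among genes of like signal gives the only scale for these sizes. It is written as a robust SD, from the median absolute deviation in 20 bins of the genes above the floor. This spread holds both measurement error and real differences between the 2 cultures. It was 0.44 log2 units at the signal of Csf3, 0.48 at that of Il23a, 0.48 at that of Csf2 and 0.27 at that of Il24. The differences of Csf3, Il24, Il23a and Csf2 were -4.62, -3.74, -3.60 and -3.06 times that spread. Those of Csf1 and Lif were -1.02 and -0.73 times it. Past 3 times the local spread, 0.617% of all genes over the floor were lower and 0.284% higher.

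**Figure D2:**
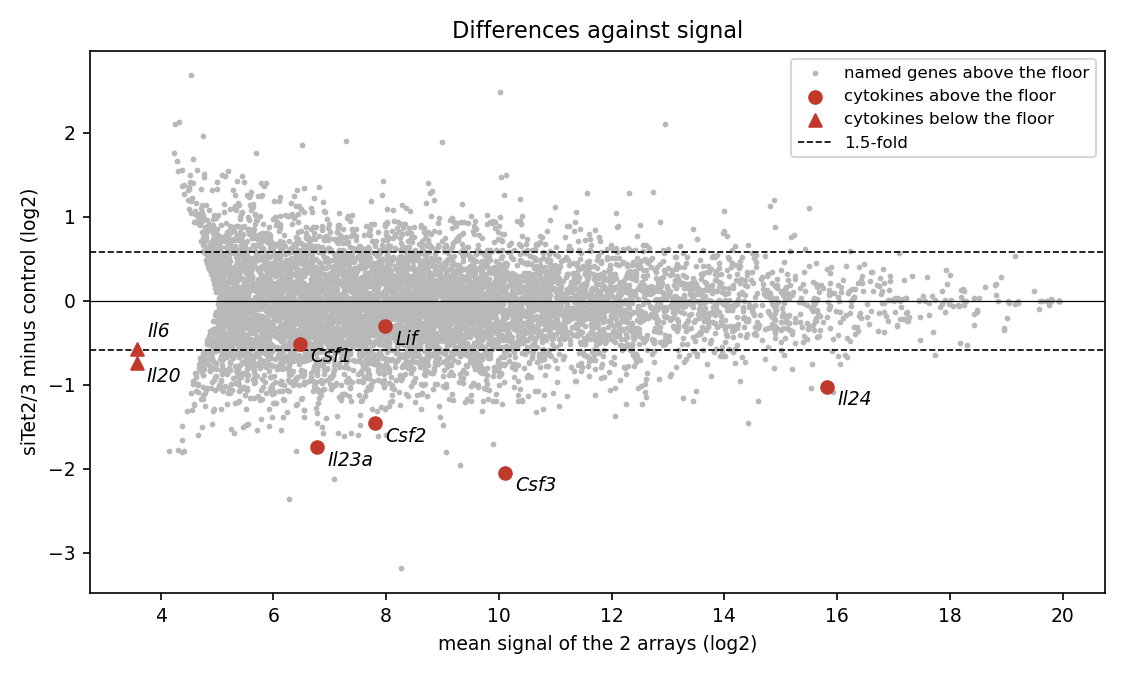
Difference in log2 signal, siTet2/3 minus control, against the mean signal of both arrays for 8103 named genes above the floor (grey) and the cytokine genes (red circles above the floor, red triangles below it). Dashed lines mark 1.5-fold. Csf3, Il23a, Csf2 and Il24 lie at the lower edge of genes of like signal, Csf1 and Lif inside it.

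All 9 keratinocyte markers with a named probe lay above the floor, among them Krt14, which encodes a keratin of the basal layer, with 18.70 log2 units on the siTet2/3 array and 18.54 on the control array; Krt5, Krt10, Col17a1 and Sfn had none. Krt15, another basal keratin gene, was the only one of the 9 past 1.5-fold and was 5.59-fold higher. Of 10 fibroblast markers and 14 T cell and mast cell markers, 0 lay above the floor. Of 12 macrophage and Langerhans cell markers, 3 did: Cd14, Cd68 and C1qa. Cd14, which keratinocytes can also express, was 1.69-fold lower, with 8.55 log2 units on the siTet2/3 array and 9.31 on the control array. Csf1r, Adgre1, Lyz2, Cd74 and Tyrobp lay below the floor on both, and the 12 averaged 4.23 log2 units on the siTet2/3 array and 4.05 on the control array. Of 7 endothelial markers only Tek passed the floor, with 9.25 log2 units on the siTet2/3 array and 9.66 on the control array, and of 5 melanocyte markers only Mitf, with 5.41 and 5.33. The part of other cells in the cytokine differences was not tested. Fewer cells of a type and less RNA per cell cannot be told apart in such bulk RNA.

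Receptors for the cytokines were then described. Of 14 listed receptor genes, 13 had a named probe and 4 lay above the floor, of which 0 passed 1.5-fold in either direction. With 13.2% of all genes lower and 8.63% higher, a count of 0 among 4 genes shows little. Il20rb and Il22ra1 encode the 2 chains of 1 of the receptors of interleukin-24. Il20rb read 5.79 log2 units on the siTet2/3 array and 6.34 on the control array, the largest difference among the 4 at -0.55. Il22ra1 read 7.30 and 7.58. Il20ra, whose product forms the other receptor with Il20rb, read 3.77 and 3.21, below the floor on both arrays. Il6st, which encodes gp130, read 10.66 on the siTet2/3 array and 10.90 on the control array, and Il6r, the interleukin-6 receptor gene, read 5.96 and 6.13. Lifr, the partner of gp130 for leukaemia inhibitory factor, lay below the floor with 3.51 and 4.36. The receptor genes of the colony-stimulating factors, Csf1r, Csf2ra, Csf2rb and Csf3r, lay below it on both arrays, as did the thymic stromal lymphopoietin receptor genes Crlf2 and Il7r. The 4 receptor genes above the floor had a median difference of -0.26, against -0.05 over all genes above the floor.

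Most related ligands were not above background. Of 15 with a named probe, 2 passed the floor, Ebi3, a subunit shared by several cytokines of the IL-12 family, and Ctf1, which encodes cardiotrophin of the IL-6 group. Ctf1 had the larger difference and read 5.93 log2 units on the siTet2/3 array and 6.13 on the control array. Il3, a relative of Csf2 and its neighbour on chromosome 10, read 2.77 and 3.07, below the floor.

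Genes of the JAK-STAT pathway, which carries the signal of these receptors, had few members past the limit. Of 17 that passed the floor, 2 differed by at least 1.5-fold downwards, 2 upwards and 13 neither, with a median of 0.05 against -0.05 over all genes. These shares lie near the 13.2% of all genes that were lower and the 8.63% that were higher. Jak1, a kinase bound to many cytokine receptors, read 11.53 log2 units on the siTet2/3 array and 10.93 on the control array, 1.52-fold higher. Stat3, the transcription factor activated by the IL-20 and IL-6 groups, read 13.21 and 12.61, also 1.52-fold higher. Both barely passed the limit. The lower genes encode feedback inhibitors that STAT proteins induce. Socs3 read 4.52 on the siTet2/3 array, below the floor, and 6.10 on the control array, and so was at least 2.08-fold lower. Cish read 8.51 and 9.16, 1.57-fold lower, and fell short of 1.5-fold once the trend of differences with signal was removed.

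Of 17 measurable genes for factors known to act at cytokine promoters, 5 were at least 1.5-fold lower as measured, 0 higher and 12 neither. The count was 4, without Cebpb, once dim values were set to the floor. The median was -0.34 against -0.05 over all genes, and 13.2% of all genes were lower. Jun, an AP-1 subunit gene, read 7.34 log2 units on the siTet2/3 array and 8.62 on the control array, 2.43-fold lower. Its siTet2/3 value lay below the negative-control floor of 8.31, so this fold rests partly on a dim signal. Fosl1, which encodes the AP-1 subunit Fra-1, read 10.55 and 11.52, 1.95-fold lower. Cebpb, a factor known at the Il6 and Csf3 promoters in mice and humans, read 4.27 on the siTet2/3 array, below the floor, and 5.34 on the control array, at least 1.23-fold lower. The other 2 were Nfkb1, the NF-kB subunit gene, 1.70-fold lower, and Atf3, a stress-induced repressor gene, 1.60-fold lower. Rela, the main activating NF-kB subunit gene, read 12.29 and 12.68, a difference of -0.39.

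Of 17 measurable genes for turnover of cytokine mRNA, 2 were at least 1.5-fold lower, 0 higher and 15 neither, with a median of -0.20 against -0.05 over all genes. The share of lower genes lies near the 13.2% of all genes. Zfp36 encodes tristetraprolin, which binds AU-rich elements and speeds the decay of mRNAs such as that of Csf2. It read 10.04 log2 units on the siTet2/3 array and 10.95 on the control array, 1.88-fold lower. Dusp1, which encodes a phosphatase of p38 and JNK kinases, read 14.00 and 14.72, 1.65-fold lower.

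Epidermal genes known to respond to the IL-20 group or STAT3 were described next. Of 11 that passed the floor, 4 were at least 1.5-fold lower, 2 higher and 5 neither, with a median of -0.10 against -0.05 over all genes, of which 13.2% were lower and 8.63% higher. S100a8, a calprotectin subunit gene, read 7.46 log2 units on the siTet2/3 array and 8.44 on the control array, 1.97-fold lower. The siTet2/3 value of S100a8 lay below the negative-control floor of 8.31. Hbegf, an EGF receptor ligand gene, was 1.90-fold lower, and Socs3 and Fosl1 also belong to this list. Ccl20, which encodes a chemokine for dendritic cells and lymphocytes, read 15.49 and 14.29, 2.29-fold higher. Lcn2, which encodes a siderophore-binding lipocalin, read 11.92 and 11.32, 1.52-fold higher. Past 1.5-fold, this list thus held 2 genes that differed in the opposite direction to the 6 cytokine genes and 4 in the same direction. At a 2-fold limit 1 of the 11 genes was higher and 1 lower, against 1.81% and 3.05% of all genes. The lower gene was Socs3, whose siTet2/3 value lay below the floor.

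**Figure D3:**
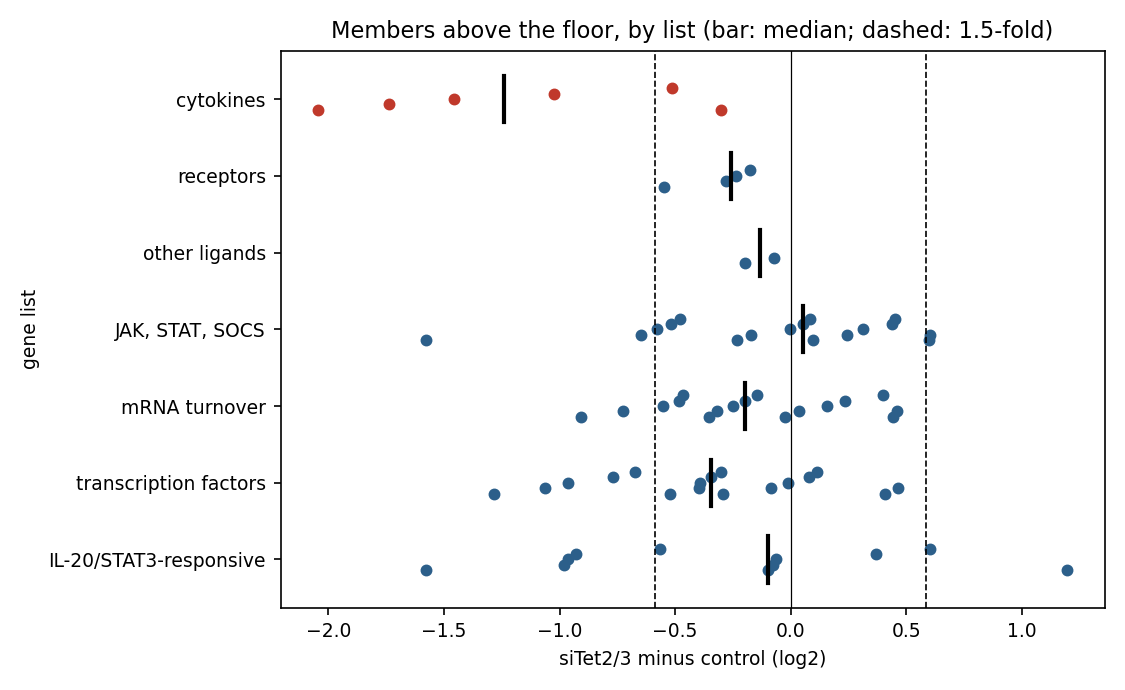
Difference in log2 signal, siTet2/3 minus control, of each gene above the floor (points) in the cytokine list (red) and 6 related lists (blue), with the list median as a black bar and 1.5-fold as dashed lines. The cytokine median is -1.24; the medians of the other lists lie between -0.34 and 0.05.

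Genes next to the cytokine genes on the chromosome were described to see whether they differed alike. Neighbours were the 3 nearest named genes with a probe on each side, in the order of the RefSeq table of GRCr8. Il6 had such genes on 1 side only. The neighbours of the 10 cytokine genes came to 45 genes that were not cytokine members. Of these, 29 passed the floor, and 3 of them were at least 1.5-fold lower as measured, 3 higher and 23 neither, with a median of -0.13. The share of lower neighbours over all 10 cytokine genes, 10.3%, was near the 13.2% of all genes. With dim values set to the floor, a setting chosen after seeing the data, 2 were lower and 2 higher. Beside Csf3, Il23a, Csf2 and Il24 alone, 16 of 23 neighbours passed the floor. Of these 16, 3 were lower as measured, or 18.8%, against 13.2% of all genes, 1 higher and 12 neither. The median of the 16 was -0.34, against -0.05 over all genes above the floor. With dim values set to the floor, Coq10a among the lower genes was 1.01-fold lower and the higher gene, Slc22a4, 1.25-fold higher. Neither then passed 1.5-fold. For Csf3 on chromosome 10, the nearest genes Psmd3, a proteasome subunit gene, and Med24, a Mediator subunit gene, differed by -0.39 and -0.44. Nr1d1, a circadian repressor gene further along, was 1.76-fold lower, with 9.88 log2 units on the siTet2/3 array and 10.70 on the control array.

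For Csf2, also on chromosome 10, P4ha2, a collagen prolyl hydroxylase gene, differed by 0.41, Fnip1, a folliculin partner gene, was 1.52-fold lower and Slc22a4, a carnitine and ergothioneine transporter gene, was at least 1.25-fold higher. For Il23a on chromosome 7, the nearest genes Stat2 and Cnpy2 differed by -0.23 and -0.29. Further along, Timeless differed by -0.21 and Cs by -0.58, just short of 1.5-fold. Coq10a, a coenzyme Q-binding protein gene, had a control value close to the floor, with a bound of 1.01-fold lower. For Il24 on chromosome 13, Il10 read 3.23 on both arrays, and Fcmr and Pigr lay below the floor as well. Mapkapk2, a kinase gene that stabilises cytokine mRNAs through p38 signalling, read 7.94 on the siTet2/3 array and 8.43 on the control array. Dyrk3, a kinase gene beyond it, was counted as a neighbour of Il20 and Il19 but not of Il24, and was at least 2.04-fold higher. Gstm5, a glutathione transferase gene next to Csf1, was 1.72-fold higher. None of the neighbours of Csf3, Il23a, Csf2 or Il24 above the floor was as low as the cytokine gene beside it. That was likely beforehand, because the cytokine genes were chosen with these differences known, so nothing is read from it.

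**Figure D4:**
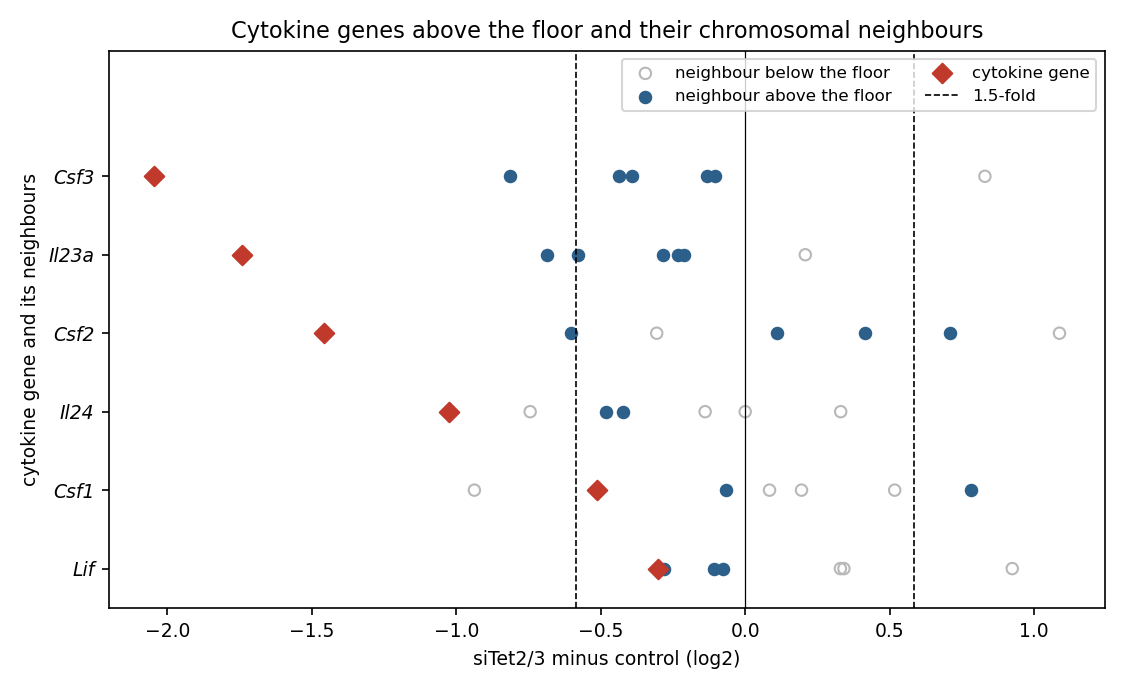
Difference in log2 signal, siTet2/3 minus control, of the 6 cytokine genes above the floor (red diamonds) and of the 3 nearest named genes with a probe on each side (blue above the floor, open grey below it), with Il20 among those of Il24; dashed lines mark 1.5-fold. Csf3, Il23a, Csf2 and Il24 lie left of all their neighbours, while Lif lies beside Ascc2 at -0.28. The cytokine genes, unlike their neighbours, were chosen with these differences known.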

How the data were processed

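Per the labels' protocols, total RNA was column-purified and labelled as cDNA by a whole-transcript method, with 1 array per group. The authors deposited log2 signals, 1 per probe set and array, in a table of 24834 rows; the submitters' processing notes name RMA and the Transcriptome Analysis Console without versions. The sources used here give no genome build or probe annotation for it. Deposited values ran from 1.36 to 19.93, and the 2 arrays had medians of 4.89 (siTet2/3) and 4.84 (control) over 23188 gene probes, with a Pearson correlation of 0.988 across these probes, which are not replicates. The near-equal distributions show a normalisation between arrays, so folds are relative to the bulk of genes. The upper end is high for plain RMA, so a further change of scale is possible and folds are those of the deposited scale.

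A platform table named 15049 gene probes with 1 symbol each and 0 with several; the other 8139 stayed unnamed. Probes of 1 gene were averaged (10 genes had several; each cytokine member had 1). All 15037 gene identifiers were found in the RefSeq table of GRCr8, used for names and neighbours. There were 0 columns of unknown samples. Differences, floors and counts were computed with Python 3.11.15 and pandas 2.3.3, and the procedure was tested on simulated data. Where 1 value lay below the floor, the fold is a bound, taken from the brighter value to the floor.

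The named genes were all 10 members, up to 3 genes per list and direction past 1.5-fold (otherwise the largest difference), and neighbours past 1.5-fold. Other genes were named for their role or position after their values were seen. Members and lists were chosen with earlier results of these data known. With 2 arrays a pattern is 1 difference, so no gene was named for likeness. Alternatives were other floors, scalings, fold limits and summaries. The planned comparison of the Il19, Il20 and Il24 proteins was not analysed here.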

Additional observations from a re-analysis of the deposited data

How the results depend on the processing

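No paired analysis was possible because each group had 1 array. The count of cytokine genes at least 1.5-fold lower was 4 of 6, and it was 4 again with a floor 1 log2 unit higher, centring, removal of the trend with signal (lowess, span 0.3), values raised to the floor, a 2-fold limit or a limit of 3 local robust SDs. It was 5 of 8 with no floor and 3 of 3 with the floor from negative-control probes. Csf3 and Il24 passed that floor on both arrays, but Csf2 only through its higher control value, so its entry favoured a lower call. The count of higher members was 0 under these alternatives. Among all genes, 12.8% were lower with the raised floor, 11.1% with centring and 11.2% with the trend removed. The share was 11.8% with values raised to the floor, 11.2% with no floor and 11% with the negative-control floor. It was 3.05% at 2-fold and 0.617% at 3 local robust SDs. As the members were chosen on this contrast, nothing is read from the steady count. The median difference of -1.24 ran from -1.46 (negative-control floor) to -0.88 (no floor); it was -1.18 as a mean and -1.02 without Csf3. Under centring, trend removal and raising to the floor, Csf3 ran from -2.05 to -1.98 and Il24 from -1.02 to -0.97. Raised to the floor, Il20 and Il6 differed by 0.

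For the 6 related lists, 113 of 131 values under an alternative stayed within 1.5 times the count or within 0.45 log2 units of the median, and 18 did not. That margin is wider than the list medians, which lie between -0.34 and 0.05. A median could fall to 0 and still be counted as staying, so the tally says little about the medians. The lower promoter factors numbered 3 of 11 with the negative-control floor, 2 of 17 at 2-fold and 1 of 17 at 3 local robust SDs. The shares of all genes lower under these settings were 11%, 3.05% and 0.617%. The 2 at 2-fold included Cebpb, whose bound was 1.23-fold. Higher JAK-STAT genes numbered 0 of 17 at 2-fold, where 1.81% of all genes were higher. Among all genes above the floor, centring gave 11.1% lower and 10.4% higher. Dim signals limit Il23a, Csf1 and Lif, which lay below the negative-control floor on both arrays. So did Socs3, Cebpb, Atf3, Gstm5, Slc22a4, Coq10a and Dyrk3 among the related and neighbouring genes past 1.5-fold. Jun, S100a8 and Fnip1 passed that floor only on the control array.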
